A study of Petromyzon marinus with 6 samples.

Results

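Very long loci were the transcribed regions of the larval sea lamprey brainstem whose exons lay spread over 200 kb or more of the germline genome assembly Pmar_germline 1.0. A locus here is a set of transcripts on 1 strand of 1 contig that the transcript assembler StringTie had joined, and its span runs from its first to its last exonic base. Members had a span of at least 200000 bp, at least 2 exon blocks (exons of the transcripts of a locus, with overlapping ones merged) and a mean raw count of at least 50 over the 6 samples. Loci in the study's own lists of differentially expressed genes were left out. Of 57134 loci, 2332 had such a span, 1328 of these fell under the count minimum, and 5 of the remaining 1004 were on the study's lists, which left 999 members. They were thus chosen by measured values, namely the mean count, the span that the assembled reads gave, and the study's calls. Loci of a smaller span with at least 2 exon blocks and the same count minimum, 11949 in number, are called shorter loci. Those on the study's lists were left out of them as well. Very long loci thus made up 7.72% of the loci of both sets.

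The study asked which genes changed in the brainstem when regeneration after a spinal cord injury was promoted with GABA. Larvae of Petromyzon marinus aged 5 to 7 years had their spinal cord cut through completely and were then held either in water that contained 500 µM GABA, an inhibitory neurotransmitter, or in plain water. The time of sampling was 29 days post-lesion, whereas the deposited description reads 9 days. There were 3 GABA-treated (GABA) and 3 control (Control) samples, each a pool of 4 brainstems, so that all groups shared the injury and the tissue and differed in the drug. Libraries were stranded and made from poly dT selected mRNA. The GABA samples held 13266414 to 14666153 counts and the Control samples 12261374 to 14248306. A separate experiment of the study used baclofen, an agonist of the GABAB receptor, on other animals. Its samples were not used here, but the study's lists hold the calls of both experiments.

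The span of a gene is set mostly by its introns, the stretches that are transcribed and then cut out of the RNA. In vertebrates the longest genes are often genes of neurons, among them many that encode adhesion proteins, ion channels and parts of the synapse, and transcribing such a gene takes long because the polymerase has to cross every intron. Short exons at the start of a gene that lie far from the rest are common in them. In data of this kind a long span can also arise when a read pair or a spliced read is placed across a long distance, since the assembler joins what such reads connect. Lampreys add a feature of their own, as their somatic cells discard part of the germline genome during development. The locus table carries no gene names, and no annotation or sequence of this assembly was used here, so members are given by their locus numbers and the labelled tissue was not checked against marker genes.

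Most very long loci owed their length to a single gap between exon blocks. Their median span was 493904 bp (range 200826 to 3467439 bp), against 17600 bp for shorter loci. The longest gap within a locus had a median of 361893 bp in very long loci and 4224 bp in shorter loci. This one gap took up a median of 81.0% of the span in very long loci and 26.9% in shorter loci. It covered at least 50% of the span in 768 of the 999 very long loci (76.9%) and in 2209 shorter loci (18.5%). It covered at least 80% in 513 very long loci (51.4%) and in 520 shorter loci (4.35%), at least 90% in 400 very long loci and at least 99% in 103. The span chose these loci, so that longer gaps were bound to be found among them, and the values are given as a description of how the length is made up.

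**Figure D1:**
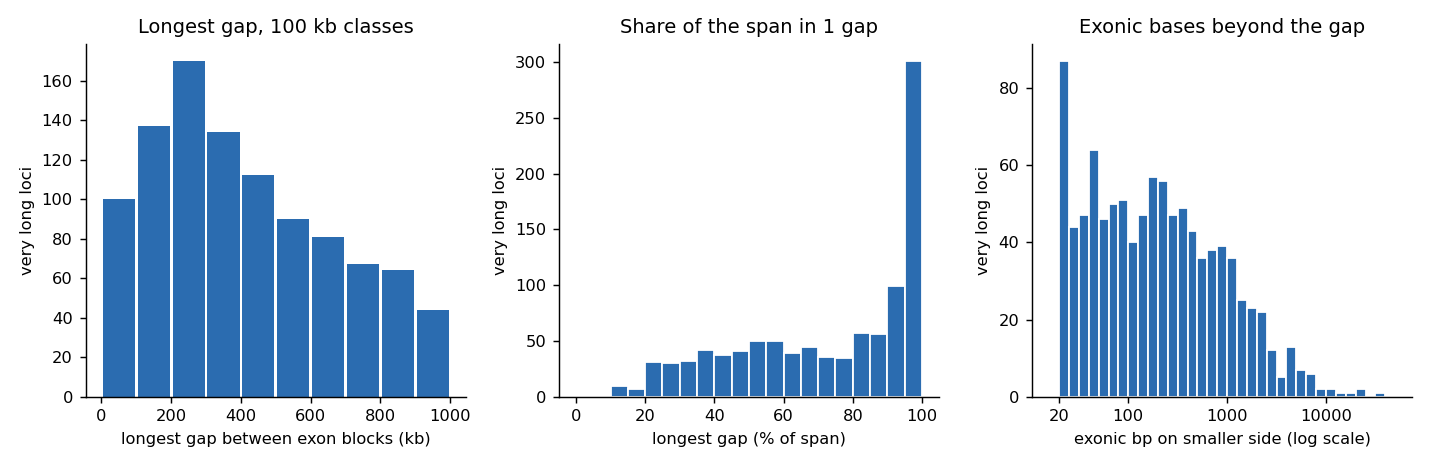
Histograms of the 999 very long loci (vertical axes, number of loci): the length of the longest gap between exon blocks in classes of 100 kb, the percentage of the span that this gap takes up, and the exonic bases on its smaller side (log axis). The most filled gap class is 200 to 300 kb with 170 loci, the middle histogram piles up toward 100%, where 301 loci have at least 95% of their span in 1 gap, and the right one is highest at its low end, near 20 bp.

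Taken without the longest gap, the span of very long loci had a median of 81928 bp. It was still 200000 bp or more in 246 loci (24.6%), and in 208 loci the exons on 1 side of the gap alone covered that distance. At the other extreme, the longer side of the gap covered under 20 kb in 264 loci, under 50 kb in 416 and under 100 kb in 568. Spans without a dominant gap were therefore the minority. Gaps of 100 kb or more numbered 0 in 100 loci, 1 in 684, 2 in 152 and 3 or more in 63. The longest gap was 998537 bp, and 0 of the 57134 loci had a gap over 1 Mb, which is the longest intron that the authors' alignment settings admitted. The longest gap lay between 200 and 300 kb in 170 members and in the last 100 kb below that limit in 44. A gap of 200 kb or more meets the span limit by itself, whereas loci with smaller gaps pass only in part. From 100 to 200 kb there were 137 members and 155 shorter loci, so the most filled class among members follows in part from the rule. Whether the alignment limit shaped the gaps was not tested.

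The exons beyond the gap were few and short. The smaller side of the longest gap held a median of 178 exonic bp (interquartile range 54 to 577.5 bp) in very long loci and 509 bp in shorter loci, or 3.03% and 14.2% of the exonic length. It was a single exon block in 689 very long loci (69.0%) and in 6020 shorter loci (50.4%). It held 100 bp or less in 389 very long loci (38.9%) and in 1055 shorter loci (8.83%), and 50 bp or less in 242 (24.2%) and 568 (4.75%) of them. Fewer than 30 bp were on that side in 124 very long loci and in 390 shorter loci (3.26%). The smaller side lay at the 5′ end of the locus, as its strand gives it, in 571 very long loci (57.2%) and in 9765 shorter loci (81.7%). In both sets the smaller side was thus more often the 5′ end, and by a narrower margin in very long loci.

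Apart from the gap, very long loci were built of exons of ordinary size. The median exon block was 156 bp in very long loci and 158.5 bp in shorter loci. Very long loci had a median of 11 exon blocks (interquartile range 5 to 20, up to 123), against 8 (4 to 13) in shorter loci. At least 20 blocks were present in 251 very long loci (25.1%) and in 11.2% of shorter loci, whereas the share with 2 blocks was 9.11% (91 loci) in very long and 9.36% in shorter loci. Summed over blocks the exonic length had a median of 7074 bp in very long loci and 4330 bp in shorter loci. The median of the gaps within a locus was 2861 bp in very long loci and 1038 bp in shorter loci, the longest gap included. An exon block of 20 bp or less was present in 170 very long loci (17.0%) and in 1016 shorter loci (8.50%).

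Other transcribed loci lay inside the gaps. At least 1 locus of the same strand, with a mean count of 50 or more, lay wholly within the longest gap in 680 very long loci (68.1%), against 326 shorter loci (2.73%), whose gaps were far smaller. The median was 2 such loci per gap, the highest number was 14, and 182 gaps held 5 or more. Scaled to length, the longest gaps of very long loci held 5.76 loci per Mb on the same strand and 6.33 per Mb on the other strand, while all contigs held 7.22 per Mb and strand. The value for all contigs includes the gaps and every locus, whereas the gap values count only loci wholly inside a gap. Gaps that overlapped were each summed in full. The rates are therefore unlike measures, and they show only that the gaps were not empty of expressed loci. In 65 cases the enclosed locus was itself a very long locus. Exon blocks overlapped those of a locus on the other strand in 514 very long loci (51.5%) and in 4596 shorter loci (38.5%). The sets were not matched for count or exonic length here, and their median exonic lengths were 7074 and 4330 bp. Overlaps on the same strand were seen in 0 very long loci. Loci were built by joining transcripts of 1 strand, so nothing is read from this 0. Counting used the strand of the reads.

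The members were scattered over the genome. They lay on 123 of the 6286 contigs that carry a locus, with at most 32 on 1 contig, and 496 were on the plus strand and 503 on the minus strand. A contig shorter than 200 kb cannot hold a member, and the 6286 contigs were not limited by length. The longest, MSTRG.30743, stretched over 3467439 bp of contig PIZI01000054.1 (3536669 to 7004107, minus strand) with 21 exon blocks that summed to 8856 bp. Next were MSTRG.32751 with 2211935 bp and 29 blocks (PIZI01000062.1, 1647325 to 3859259, plus strand), and MSTRG.33286 with 2080822 bp and 46 blocks (PIZI01000064.1, 2546340 to 4627161, minus strand). In these 3 loci the longest gap took up between 23.2% and 33.8% of the span.

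The next longest formed a pair on opposite strands of 1 contig. MSTRG.35517 ran over 1927506 bp of the plus strand of PIZI01000081.1 (3002 to 1930507), with 123 exon blocks and 147070 exonic bp. MSTRG.35519 ran over 1862000 bp of its minus strand (23819 to 1885818), with 90 blocks and 96742 exonic bp. They covered 97.2% and 93.9% of the contig up to the end of its last locus, shared 0 exonic bp, and together held 92.8% of all counts on it. The contig carried 56 loci, 9 of them with a mean count of 50 or more. No other member had as many exon blocks as MSTRG.35517, and MSTRG.12101, with 95 blocks in 324262 bp (PIZI01000016.1, 4308084 to 4632345, plus strand), came next. MSTRG.224 had 81 blocks, of which a single block of 20 bp lay beyond a gap of 542633 bp.

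At the opposite end were loci of 2 exon blocks with almost nothing but gap. In MSTRG.23298 the gap of 885110 bp made up 99.98% of the span and separated blocks of 194 and 23 bp (PIZI01000036.1, 6549908 to 7435234, minus strand). Inside it lay 10 loci of the same strand and 12 of the other strand with a mean count of 50 or more. MSTRG.13613, MSTRG.16904 and MSTRG.7035, also of 2 blocks, had gaps of 884240, 944374 and 955607 bp, with smaller blocks of 32, 37 and 44 bp. Among the members just inside the span limit were MSTRG.28710 (200826 bp, 21 blocks) and MSTRG.4913 (200978 bp, 6 blocks), and just outside it MSTRG.10001 (199598 bp, 46 blocks) and MSTRG.19548 (199223 bp, 11 blocks). The gap took up 57.95% and 85.6% of the span in the pair inside and 33.3% and 23.2% in the pair outside.

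To compare levels, members were set beside shorter loci of the same class of mean raw count (7 classes from 50 to over 5000). Weighted to these classes, the median of exon blocks was 11 in very long loci and 9 in shorter loci, and the median exonic length was 7074 bp and 4915 bp. CPM here are counts scaled to the library total over the loci kept for testing, adjusted by TMM factors. The level was taken as CPM for each kb of exonic length. It had a median of 6.98 in very long loci and 9.11 in shorter loci so weighted (ratio 0.766). Shorter loci without the weighting had a median of 6.20. At matched counts a lower level per kb restates the greater exonic length. The difference depended on the class. At a mean count of 50 to 100 the median level was 2.53 CPM per kb in 123 very long loci and 2.28 in 1878 shorter loci, with 4 and 5 blocks. At 2000 to 5000 it was 18.4 in 148 very long loci and 31.1 in 892 shorter loci, with 17 and 11 blocks, and above 5000 it was 41.9 in 45 very long loci and 103 in 285 shorter loci. Median exonic length rose with count in both sets up to 2000 to 5000 counts. It went from 2201 to 12599 bp in very long loci and from 2328.5 to 6948.5 bp in shorter loci. Above 5000 counts it was 16346 bp and 5809 bp. No test was made across loci, which are not replicates.

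**Figure D2:**
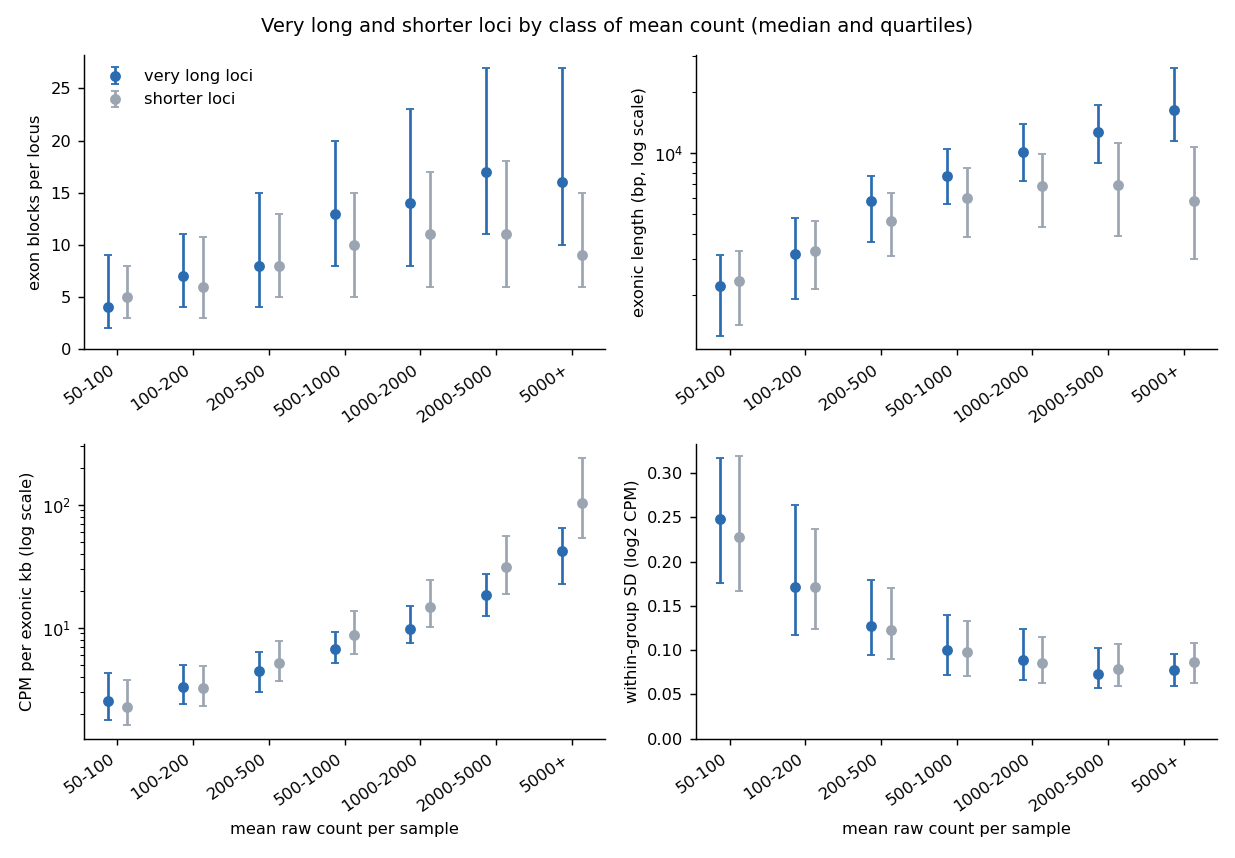
Very long loci (blue) and shorter loci (grey) in 7 classes of mean raw count, with medians as points and quartiles as bars over loci, for the number of exon blocks, the exonic length (log axis), the level in CPM per exonic kb (log axis) and the within-group SD of log2 CPM. From 200 counts upward the very long loci have more exonic length and a lower level per kb, and the spread lies at nearly the same height in both sets.

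The level per kb is a count divided by exonic length, which favours loci of little exon. MSTRG.17037 reached 424 CPM per kb with 671 exonic bp in 5 blocks, of which 25 bp lay beyond a gap of 672974 bp (PIZI01000024.1, 12100335 to 12780550, minus strand). MSTRG.2329 followed with 365 CPM per kb on 458 bp in 3 blocks, and MSTRG.6593 with 276 on 5605 bp in 8 blocks. MSTRG.27571 had 218 CPM per kb and MSTRG.37957 had 177. The smaller side of the gap held between 20 and 90 bp in these 5 loci. None of them was called between the groups, and MSTRG.6593 had 19019.7, 18474 and 22574 normalized counts in GABA samples, against 21772, 19493 and 21358 in Control samples. Normalized counts are counts divided by size factors, which lay between 0.878 and 1.10.

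Replicates varied by a similar median amount in both sets. The SD of log2 CPM within groups had a median of 0.110 in very long loci and 0.107 in shorter loci weighted to the same count classes. At 50 to 100 counts it was 0.248 in very long loci and 0.227 in shorter loci, and at 2000 to 5000 counts 0.073 and 0.079. Among members the median SD was 0.166 for loci of 2 blocks and 0.0838 for loci of 20 or more blocks, whose median mean counts were 231.7 and 1350. The largest SD, 1.24, was that of MSTRG.38155 (7 blocks, 642 exonic bp), which had 109, 16.0 and 121 normalized counts in GABA samples and 45.1, 62.9 and 25.1 in Control samples. Its groups overlapped, because GABA replicate 2 was the lowest sample of all. The smallest SD, 0.022, was that of MSTRG.33709, described further on.

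The share of all counts that fell on very long loci was compared between the groups. They held 10.4%, 10.8% and 10.8% of the counts in GABA samples, against 10.5%, 10.5% and 10.4% in Control samples. The means were 10.7% ± 0.234 in GABA samples and 10.5% ± 0.0419 in Control samples (SD, n = 3 each), and the groups overlapped, with 2 of the 3 GABA samples above every Control sample. In bulk samples of this kind fewer cells of a type and less RNA per cell cannot be told apart, here or in the results that follow. The pools were separate samples of different animals.

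Locus by locus, edgeR's quasi-likelihood test called 0 very long loci between GABA and Control samples at 0.05 after Benjamini-Hochberg adjustment, where the share over all 24300 loci tested was 0%. The smallest adjusted p among members was 0.504. At an unadjusted p under 0.05 in edgeR's test there were 60 members (6.01%), against 6.55% of all loci tested. Of these, 30 were higher in GABA samples (background 3.08%) and 30 were lower (background 3.47%). The groups did not overlap in normalized counts at 120 members, against a background of 12.2% of all loci tested, with GABA higher at 48 (background 5.14%) and lower at 72 (background 7.06%). The shares were near the background, and since loci that the study had called were left out by the rule, nothing is read from them. Of the 5 loci so removed, 1 was on the study's GABA list. It was GTF2F2 (MSTRG.32603, 1491372 bp), which encodes a subunit of a general transcription factor of RNA polymerase II. The other 4 were on its baclofen list, among them CPLX1 (MSTRG.11302, 241920 bp), which encodes a complexin that acts in transmitter release, and PRG4 (MSTRG.36248, 256918 bp), which encodes a secreted proteoglycan.

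**Figure D3:**
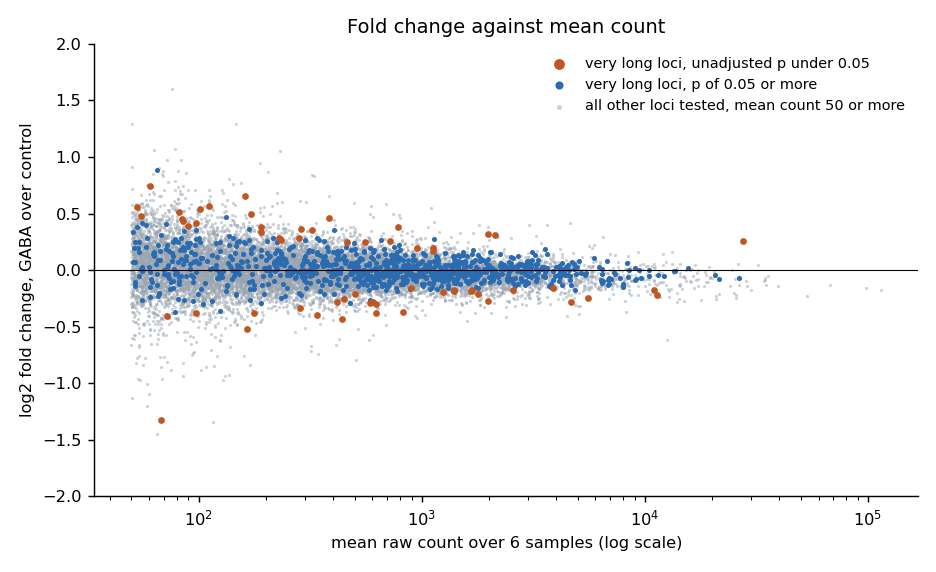
Log2 fold change of GABA over Control samples (vertical axis, edgeR) by mean raw count (horizontal log axis), with very long loci in orange (unadjusted p under 0.05, 60 loci) and blue (p of 0.05 or more) over all other loci tested with a mean count of 50 or more in grey. The very long loci lie around 0, most of them between −0.19 and 0.26, and MSTRG.11936 at −1.33 lies farthest away.

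Changes were also small in size. The median log2 fold change (GABA over Control) was −0.0024 in very long loci and 0.0062 over all loci tested, and the central 90% ran from −0.19 to 0.26 in very long loci and from −0.37 to 0.53 over all loci, which include many of lower count. Shorter loci weighted to the same count classes had a median of −0.02. The median standard error of a member was 0.09, and 489 members were above 0 and 510 below it. An absolute log2 fold change over 0.5 was reached by 9 members (0.901%), against 0.992% of shorter loci so weighted. An unadjusted p under 0.05 was found in 6.01% of very long loci and in 8.68% of shorter loci so weighted. With library size as the only scaling, 67 members were higher and 18 lower at that p, and the median of all loci tested stood at 0.05 in place of 0.0062. Over all loci that p was reached, in either direction, by 1624 of 24300 with this scaling and by 1591 of 24300 in the main fit.

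Counts at this p are given by structure as a description, beside a share of 6.55% over all loci tested. Loci that kept a span of 200 kb without their longest gap had 2 higher and 2 lower of 246 at an unadjusted p under 0.05 in edgeR's test (1.63%), against 28 higher and 28 lower of 753 (7.44%) among those that did not. Their median mean count was 1153, against 598.5, and their median SD of log2 CPM was 0.0917, against 0.115. Of the 83 members with a span of 1 Mb or more, 0 were higher and 1 was lower, the smallest share of these subsets, and of the 408 between 500 kb and 1 Mb, 9 were higher and 9 lower (4.41%). Those of 300 to 500 kb had 10 higher and 11 lower of 259 (8.11%), and those of 200 to 300 kb had 11 higher and 9 lower of 249 (8.03%). Members of 20 or more blocks had 5 higher and 3 lower of 251 (3.19%), and members of 2 blocks had 4 higher and 3 lower of 91 (7.69%). The differences between these subsets were not tested, nor was the part of count depth in them.

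Deeply counted loci of both sets are given as a description, and no test was made across loci, which are not replicates. At a mean count of 1000 or more, 5 of 396 very long loci were higher and 13 lower at an unadjusted p under 0.05 in edgeR's test (3.28% lower), against 42 higher and 282 lower of 2661 shorter loci (10.6% lower). Over all loci tested, which include many of lower count, 3.08% were higher and 3.47% lower at that p. The share lower among these members lay near that value, and nothing is read from it. The median log2 fold changes were −0.02 in very long loci and −0.04 in shorter loci. The exonic length of these loci differed as well, with a median of 11435 bp in very long loci and 6841 bp in shorter loci, and the fold change followed exonic length in both sets. Under 3 kb of exon the median log2 fold change was −0.10 in 15 very long loci and −0.10 in 415 shorter loci, and from 9 to 15 kb it was −0.01 in 156 very long loci and −0.01 in 668 shorter loci. The share lower was 13.3% and 25.3% under 3 kb, 10.8% and 15.2% from 3 to 6 kb, 1.33% and 6.36% from 6 to 9 kb, 1.92% and 3.29% from 9 to 15 kb, and 2.65% and 1.90% above, each with very long loci before shorter ones. In the same order, the median log2 fold changes were −0.054 and −0.069 from 3 to 6 kb and −0.038 and −0.043 from 6 to 9 kb. At 15 kb or more they were 0.00026 in 113 very long loci and 0.02 in 210 shorter loci. The part of exonic length in the difference between the sets was not tested. With an offset for exonic length in the fit, 19 of the 396 very long loci and 293 of the 2661 shorter loci were lower. These counts moved with the libraries, the filter and the scaling. Without GABA replicate 2 the counts of lower loci were 9 very long and 117 shorter, without Control replicate 1 they were 27 and 379, without Control replicate 2 they were 15 and 176, and with library size as the only scaling 7 and 140. With no filter on low counts, 27 very long loci and 361 shorter loci were lower. The number of very long loci higher ran from 2 without Control replicate 2 and 3 without GABA replicate 3 to 14 without GABA replicate 1, and was 15 with a filter at a mean count of 100 and 22 with library size as the only scaling. With that filter 12 very long loci were lower, and the median log2 fold change of all 396 very long loci was 0.0030, above 0. The share lower over all exonic lengths was smaller in very long loci under each of these settings, which drew on the same 6 samples. At 15 kb of exon or more the main fit gave the larger share in very long loci (2.65% against 1.90%). The settings were not compared by exonic length, and nothing is read from their agreement.

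**Figure D4:**
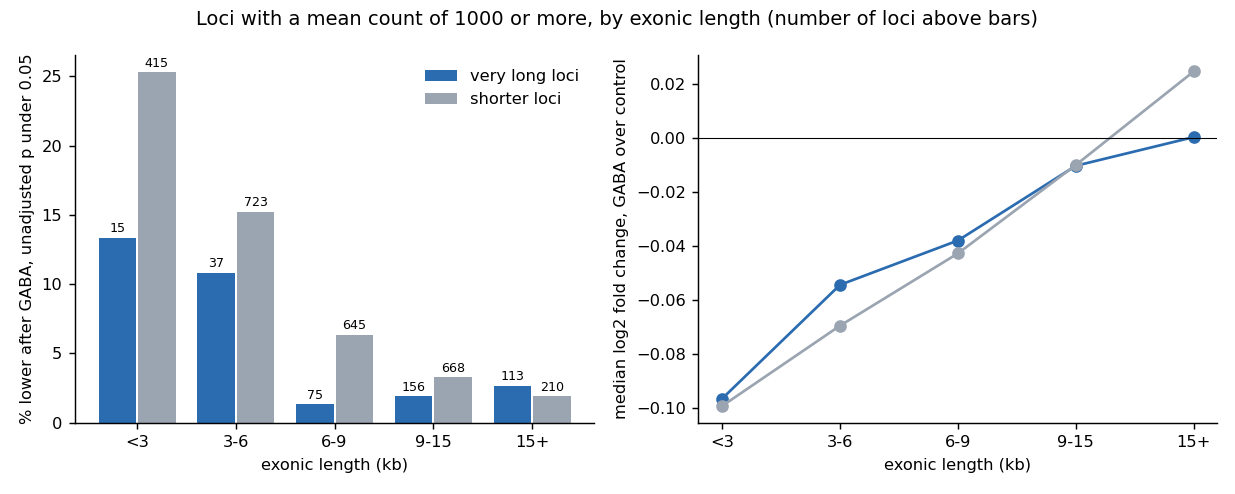
Loci with a mean count of 1000 or more by class of exonic length in kb, with very long loci in blue and shorter loci in grey. Bars give the percentage lower after GABA at an unadjusted p under 0.05, with the number of loci above them, and lines give the median log2 fold change of GABA over Control samples, which is −0.10 under 3 kb and −0.01 at 9 to 15 kb in both sets, and 0.02 at 15 kb or more in shorter loci.

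The members with the smallest p in either direction are given with their values in each sample. Among those higher, MSTRG.29591 (5 blocks, 10762 exonic bp, gap of 254858 bp, PIZI01000051.1, 5207795 to 5501067, plus strand) had 2133, 2304 and 2001 normalized counts in GABA samples, against 1815, 1795 and 1599 in Control samples. Every GABA sample lay above every Control sample, and the log2 fold change was 0.32 (SE 0.078, edgeR adjusted p = 0.663). The adjusted p of MSTRG.29591 was 0.0817 in DESeq2 with default filtering and 0.474 in DESeq2 without independent filtering. MSTRG.6220 (6 blocks, PIZI01000007.1, 14271311 to 15181084, plus strand) had 163, 171 and 248 in GABA samples and 136, 119 and 116 in Control samples. Its difference rested most on GABA replicate 3, and the log2 fold change of 0.66 (SE 0.17, edgeR adjusted p = 0.718) became 0.44 at the lowest when 1 sample was left out. A single block of 123 bp lay at the 5′ end of this locus, beyond a gap of 904372 bp that held 9 loci of the same strand. MSTRG.7926 had 298, 339.9 and 314 normalized counts in GABA samples and 241, 276 and 231 in Control samples, a log2 fold change of 0.36. MSTRG.15358 and MSTRG.13787 had log2 fold changes of 0.54 and 0.38 without overlap of the groups. In edgeR's test the adjusted p was 0.729 for the last 3.

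Among those lower, MSTRG.11936 had the largest difference of any member. It consisted of blocks of 277 and 745 bp separated by 655739 bp (PIZI01000016.1, 86945 to 743705, minus strand). Its normalized counts were 32.6, 34.7 and 49.3 in GABA samples, against 85.5, 109.8 and 100.2 in Control samples, and the groups stood well apart. The log2 fold change was −1.33 (SE 0.21) and lay between −1.53 and −1.21 with any 1 sample left out. The adjusted p was 0.504 in edgeR's test with the filter on low counts, 0.007 in edgeR's test without that filter and 0.0203 in DESeq2 without independent filtering, and it ran from 0.007 to 0.941 over all settings tried. It was the only member called under any of them. Over all loci those settings called 0.107% and 0.013%.

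MSTRG.36155 came next (5 blocks, 1822 exonic bp, PIZI01000090.1, 977960 to 1378113, minus strand). It had 411, 351 and 356 normalized counts in GABA samples, against 472, 515 and 538 in Control samples, a log2 fold change of −0.43 (SE 0.093, edgeR adjusted p = 0.575). Its blocks were 1576, 9, 6, 17 and 214 bp long, so that each of the 3 in the middle had 17 bp or less. In the gap between the blocks of 17 and 214 bp lay the whole of MSTRG.36157, on the same strand. The block of 214 bp was 229 bp away from the 5′ end of MSTRG.36157. The study named that locus MT-CO2 in its lists of differentially expressed genes. The name stands for a mitochondrially encoded subunit of cytochrome c oxidase, yet the locus lies at 1376312 to 1377670 of this contig. Whether it is the mitochondrial gene itself was not tested. MT-CO2 had 4892, 4102 and 4078 normalized counts in GABA samples, against 5020, 5973 and 6277 in Control samples (log2 fold change −0.39, SE 0.092, edgeR adjusted p = 0.606). In both loci GABA replicate 1 was the highest GABA sample and Control replicate 1 the lowest Control sample. Whether reads from 1 reached the other was not tested.

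**Figure D5:**
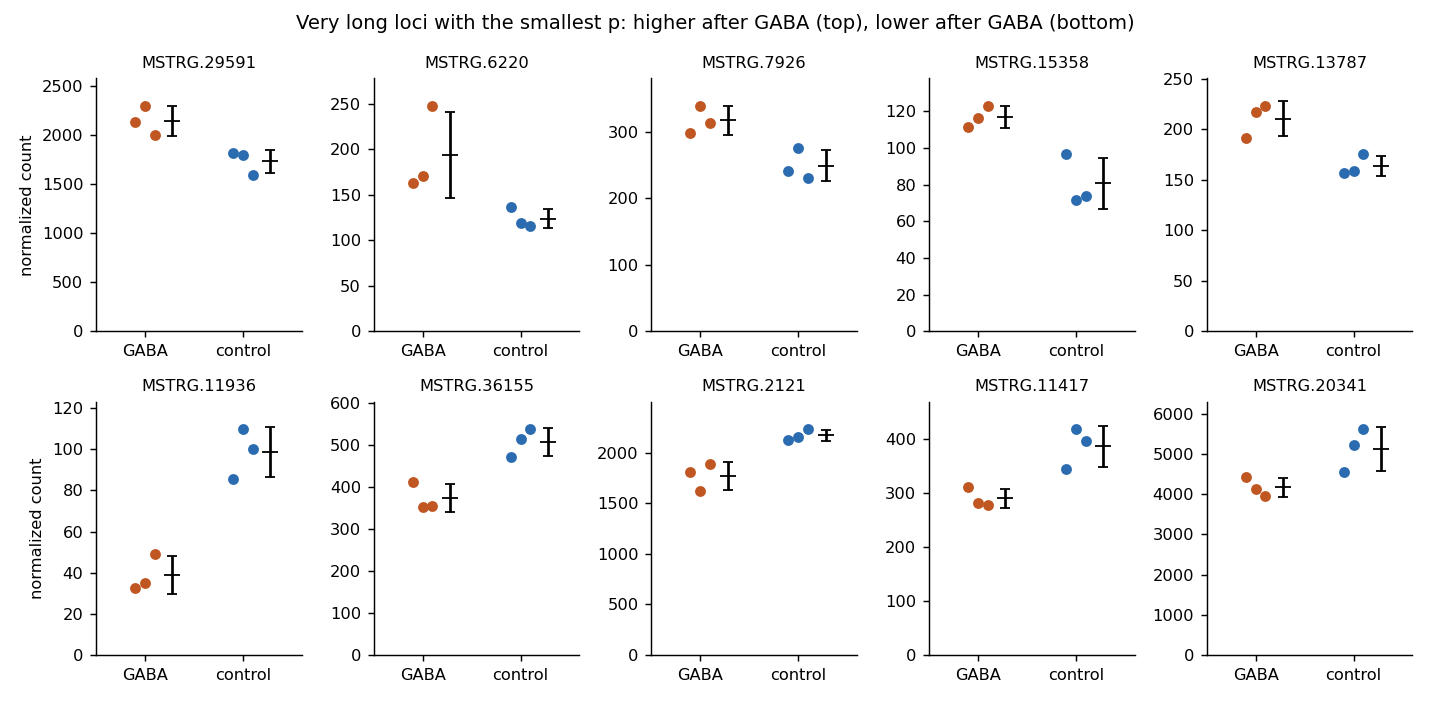
Normalized counts of the 5 members higher (top) and the 5 members lower after GABA (bottom) with the smallest edgeR p, GABA samples in orange and Control samples in blue. Each point is 1 sample, the bars beside them are the mean ± SD (n = 3), and the axes start at 0. The groups overlap in none of the 10 panels, which the choice by p on this contrast favoured, and MSTRG.11936 has the widest separation for its level.

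The other 3 were smaller in size. MSTRG.2121 had 1808, 1619 and 1889 normalized counts in GABA samples, against 2123, 2159 and 2232 in Control samples (log2 fold change −0.28, SE 0.069, edgeR adjusted p = 0.692). MSTRG.11417 and MSTRG.20341 had log2 fold changes of −0.40 and −0.28, with edgeR adjusted p of 0.718 and 0.721. In DESeq2 with default filtering the adjusted p was 0.0807 for MSTRG.2121 and 0.0998 for MSTRG.20341, and MSTRG.11417 had none. In DESeq2 without independent filtering it was 0.460 for MSTRG.2121, 0.582 for MSTRG.20341 and 0.997 for MSTRG.11417. The groups did not overlap at any of these 3. The groups did not overlap either at the member with the least spread, and they did not at 12.2% of all loci tested. MSTRG.33709, with 12 blocks of which a first block of 22 bp lay 708926 bp from the next (PIZI01000066.1, 2894514 to 3726539, plus strand), had 1543, 1490.3 and 1553 normalized counts in GABA samples, against 1763, 1763 and 1759 in Control samples. Its log2 fold change was −0.19 (SE 0.06, edgeR adjusted p = 0.729). It was named for its small SD of 0.022, so the SE, which edgeR moderates over all loci, is the error to set it against.

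None of the 5 longest loci was called between the groups. MSTRG.30743 had 302, 403 and 392 normalized counts in GABA samples, against 357, 255 and 298 in Control samples (log2 fold change 0.28, SE 0.15, edgeR adjusted p = 0.797). MSTRG.35517 had 8903, 8376 and 8625 in GABA samples and 8610.2, 9396 and 9860 in Control samples (log2 fold change −0.09, SE 0.065, edgeR adjusted p = 0.830). In both the groups overlapped. The partner of MSTRG.35517 on the other strand, MSTRG.35519, had 6971, 6186 and 6517 in GABA samples and 6541, 7167 and 7931 in Control samples (log2 fold change −0.12, SE 0.076). MSTRG.32751 and MSTRG.33286 had log2 fold changes of 0.08 and −0.02. A two-sided exact permutation test of 1 locus cannot give a p below 0.1 with 3 samples in each group.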

How the data were processed

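Brainstem RNA-Seq counts of spinal-transected sea lamprey larvae were analysed in 3 GABA and 3 Control samples, grouped by their labels. The authors aligned 150 bp paired reads with STAR to Pmar_germline 1.0, with introns of up to 1 Mb, built loci with StringTie and counted fragments by strand with featureCounts. The deposited values are whole-number counts without normalization, and the table also gives exon coordinates and exonic length for 57134 loci. Each of the 6 value columns belonged to a sample, with 0 unmatched. For 2 loci broken over 2 lines the lines were rejoined, and in 658 loci the cut strand field still gave the strand. Merged exon blocks gave the deposited exonic length in 57134 loci.

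The members and lists were chosen with earlier results of these data known. After filterByExpr 24300 loci remained. They were tested together in edgeR 4.0.16 under R 4.3.3 (TMM scaling, quasi-likelihood, two-sided, Benjamini-Hochberg adjustment), and the model held the condition alone. DESeq2 1.42.0 and limma 3.58.1 (voom) were alternatives. Python 3.11.15 with pandas 2.3.3 and matplotlib 3.10.9 served for tables and plots. Per sample there were 12261374 to 14666153 counts, and within a group the mean chi-square per locus was 3.97 to 5.57, where counting noise gives 1. Precision was limited by the number of samples besides the depth. Fits were tested on simulated data of 24300 loci. With no locus changed, edgeR called 1 and DESeq2 with default filtering 3. With 200 loci changed by 0.5 on the log2 scale, edgeR called 48.5% of them and DESeq2 56%. With a change of 1 these shares were 98% and 98.5%. At that change 22 of 218 edgeR calls and 30 of 227 DESeq2 calls fell on unchanged loci. Log2 CPM used a pseudocount of 0.5.

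Named loci were the 5 members with the longest span, the 5 with the highest level per exonic kb, the 4 with the most exon blocks, the 4 with the largest share of the span in 1 gap, the 5 higher and the 5 lower after GABA with the smallest edgeR p, the 3 with the largest and the 3 with the smallest spread, and the 2 loci on each side of the span limit. Loci of the study's lists that met the rule were named where they have a symbol, and MT-CO2 was added after its values were seen. Alternatives were other tests, scalings, count filters, a replicate block, an offset for exonic length, each sample left out, and other limits for span and count.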

Additional observations from a re-analysis of the deposited data

How the results depend on the processing

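The median log2 fold change of very long loci stayed between −0.02 and 0.04 over 23 alternatives, and the difference in spread from shorter loci of the same counts stayed between −0.0054 and 0.0067 over 16. The number of loci with an adjusted p under 0.05 over the whole table was 0 in edgeR's test, 23 in DESeq2 with its default filtering, 7 in DESeq2 without independent filtering and 58 in edgeR with no count filter. Among very long loci, edgeR with no count filter called 1, DESeq2 without independent filtering 1, and DESeq2 with default filtering called 0 of the 608 with an adjusted p. The study itself used DESeq2 and its calls were left out by the rule, so nothing is read from that 0. The remaining members, MSTRG.11936 among them, had no adjusted p in that setting. At an unadjusted p under 0.05, where edgeR gave 30 higher and 30 lower, DESeq2 with and without its filtering gave 17 higher and 32 lower. Library size as the only scaling gave 67 higher and 18 lower, and no count filter gave 41 higher and 46 lower. Other limits are given beside the share of 6.55% over all loci tested in the main fit. A span limit of 100 kb (1722 loci) gave 60 higher and 55 lower, and 300 kb (750 loci) gave 19 higher and 21 lower. A limit of 500 kb (491 loci) gave 9 higher and 10 lower. A mean count of at least 200 (784 loci) gave 16 higher and 25 lower, and a span of 200 kb without the longest gap (246 loci) gave 2 higher and 2 lower. Leaving out 1 sample at a time gave 21 to 60 higher, the 60 without GABA replicate 1, and 22 to 45 lower, the 45 without Control replicate 1, with 0 called each time. The counts over all loci moved as well. In either direction that p was reached by 1591 of 24300 loci in the main fit and 1624 of 24300 with library size only. It was reached by 3012 of 54031 with no count filter and 1144 of 54018 in DESeq2 without independent filtering. Without GABA replicate 1 the number was 2247 of 25295, and without Control replicate 1 it was 1899 of 25171. The cause of these changes was not tested.

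With the replicate number as a block, 0 were called and 28 were higher and 28 lower. Deviations of same-numbered samples correlated at −0.14, 0.06 and −0.11, which gave no sign that the numbers pair the samples. With 3 samples in each group such correlations cannot settle whether they do. Loci near the count minimum of 50 had a median SD of 0.248 on the log2 scale, and small differences there were not detectable at this depth. Gene names and sequences were not analysed here.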
